A study of Mus musculus with 7 samples.

Results

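B-cell progenitors of the Rescue mouse were compared at the pre-proB and proB stages by ATAC-seq, an assay in which a transposase cuts open chromatin so that accessible regions appear as peaks of sequenced fragments. A peak of the Rescue pre-proB library that shared no base with any Rescue proB peak was counted as lost, and a Rescue proB peak that shared no base with any Rescue pre-proB peak as gained. Of 105649 Rescue pre-proB peaks, 34950 were lost (33.1%, 95% Wilson interval 32.8 to 33.4), and of 91471 Rescue proB peaks, 19949 were gained (21.8%, 21.5 to 22.1). The Rescue genotype was Rag1CreT/+;Ergdelta/delta;IgHVH10tar, in which both Erg alleles are deleted by a Cre that Rag1 regulatory sequence drives in lymphoid progenitors, and in which a knock-in allele supplies an already rearranged immunoglobulin heavy chain. The Erg KO pre-proB library, Rag1CreT/+;Ergdelta/delta, carried the same Cre and deletion without the knock-in, and the WT libraries were Ergfl/fl, with floxed Erg and no Cre listed. The knock-in confines the cells to a restricted heavy chain repertoire, which limits the Rescue mouse as a model. There were 7 libraries, 1 for each genotype and stage, from sorted progenitors of mice whose age and number per library the labels do not give. With 1 library a side no test between stages or genotypes was possible, and the intervals cover counting error only.

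The stages were taken from the sample titles, and the source names of the Rescue libraries go against them. The library titled Rescue pre-proB has the source proB cells, the one titled Rescue proB has preB cells and the one titled Rescue preB has pre-proB cells. The promoters of Pax5 and Pou2af1, a factor and a coactivator of committed B cells, held no peak in the library titled Rescue pre-proB, none in Erg KO pre-proB and weak ones in WT pre-proB, at a −log10 q of 5.26 and 20.9. They held peaks of 154.4 and 532.2 in the library titled Rescue proB and of 294.9 and 929.0 in the one titled Rescue preB. The directions given below rest on the titles. Staged by source name, most gene lists, all 26 of the genes tried singly and the shares of EBF1 and RUNX letters turned around, while the recombination and interleukin 7 receptor lists kept their sign and opened promoters still outnumbered closed ones (703 and 407).

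Commitment to the B lineage turns on a small set of transcription factors. E2A, Foxo1 and Ikaros act early, Ebf1 then opens B-cell enhancers, and Ebf1 and Pax5 maintain each other while Pax5 silences genes of other lineages. Erg is a factor of the ETS family that acts in blood stem cells and early lymphoid cells. The pre-B-cell receptor, made of a heavy chain, the surrogate light chain proteins VpreB and lambda5, and the signalling chains Cd79a and Cd79b, is the checkpoint that a proB cell has to pass. Before commitment a progenitor can still give rise to dendritic, innate lymphoid, T or myeloid cells.

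A few strong unshared peaks that hold the letters of a lineage factor are shown first, chosen for those letters and so no measure of how common they are. Each line is a window of 121 bases round a summit, from the mm10 build of the mouse genome (GRCm38, RefSeq), plus strand, named for the protein-coding gene with the nearest start site. Of the gained peaks, the 4 with the highest score that hold the palindromic letters TCCCNNGGGA, which the factor EBF1 recognises, lay at chr4:15252666-15252786 (intergenic, 13.1 kb upstream of Tmem64), chr8:34455454-34455574 (intron, 301 kb downstream of a Saraf start site), chr8:104185096-104185216 (intron, 14.3 kb into Bean1) and chr8:126529436-126529556 (intergenic, 54.4 kb upstream of Tarbp1). Capitals in the gained sequences mark TCCCNNGGGA, the octamer ATGCAAAT that Oct factors bind, and the E-box CAGCTG that E2A binds, each on either strand.
Tmem64: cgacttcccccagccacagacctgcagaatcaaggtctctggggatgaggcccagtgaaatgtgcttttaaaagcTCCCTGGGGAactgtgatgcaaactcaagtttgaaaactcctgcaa
Saraf: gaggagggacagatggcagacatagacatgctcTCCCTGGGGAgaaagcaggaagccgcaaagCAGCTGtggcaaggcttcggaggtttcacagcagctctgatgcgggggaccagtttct
Bean1: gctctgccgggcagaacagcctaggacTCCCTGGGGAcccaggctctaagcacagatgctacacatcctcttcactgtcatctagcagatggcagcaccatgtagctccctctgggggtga
Tarbp1: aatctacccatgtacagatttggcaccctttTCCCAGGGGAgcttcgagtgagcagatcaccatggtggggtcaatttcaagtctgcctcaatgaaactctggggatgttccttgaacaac
These 4 peaks had a −log10 q of 713.8, 606.6, 604.6 and 596.5 in Rescue proB. All 4 were present in WT pre-proB, WT proB, WT preB and Rescue preB and absent from Rescue pre-proB and Erg KO pre-proB.

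A strong gained peak with the octamer, at a −log10 q of 444.1, lay at chr10:117560026-117560146, in an annotated exon 69.4 kb upstream of Cpm. The strongest gained peak of Pax5 lay at chr4:44709177-44709297, 1.17 kb downstream of a Pax5 start site, and is shown because Pax5 is the commitment factor whose promoter opened.
Cpm: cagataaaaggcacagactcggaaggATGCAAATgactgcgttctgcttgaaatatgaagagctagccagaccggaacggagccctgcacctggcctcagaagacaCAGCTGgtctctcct
Pax5: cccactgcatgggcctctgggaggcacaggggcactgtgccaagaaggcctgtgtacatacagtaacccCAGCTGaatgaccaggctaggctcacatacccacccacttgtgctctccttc
The Pax5 window held 1 E-box and neither other pattern. Its peak was present in all 4 proB and preB libraries and in none of the 3 pre-proB libraries.

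For the lost peaks, the 3 of highest score with the RUNX letters TGTGGTT and the 2 of highest score with the PU.1 letters GAGGAAGT are shown, since both factors act in uncommitted progenitors. They lay at chr1:105574685-105574805 (annotated exon, 84.3 kb downstream of a Pign start site), chr11:67125510-67125630 (intergenic, 45.5 kb upstream of Myh2), chr2:101856310-101856430 (intron, 17.4 kb upstream of a Prr5l start site), chr7:118484143-118484263 (intergenic, 7.77 kb downstream of an Itpripl2 start site) and chr3:99853604-99853724 (intergenic, 31.8 kb upstream of Spag17). Capitals mark TGTGGTT, GAGGAAGT and the composite letters GGAANNGAAA of ETS with IRF factors, on either strand.
Pign: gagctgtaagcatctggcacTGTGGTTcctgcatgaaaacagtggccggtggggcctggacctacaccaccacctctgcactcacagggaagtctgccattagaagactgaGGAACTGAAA
Myh2: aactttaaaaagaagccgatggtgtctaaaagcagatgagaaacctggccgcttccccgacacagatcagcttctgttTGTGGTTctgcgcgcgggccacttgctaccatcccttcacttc
Prr5l: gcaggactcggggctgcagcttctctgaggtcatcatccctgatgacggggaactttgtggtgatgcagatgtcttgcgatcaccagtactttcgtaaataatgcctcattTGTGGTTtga
Itpripl2: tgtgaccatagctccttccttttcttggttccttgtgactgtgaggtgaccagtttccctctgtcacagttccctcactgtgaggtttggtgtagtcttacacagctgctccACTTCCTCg
Spag17: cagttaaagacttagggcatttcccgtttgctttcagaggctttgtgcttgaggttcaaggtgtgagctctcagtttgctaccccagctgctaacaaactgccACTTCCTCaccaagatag
All 5 were present in WT pre-proB and Erg KO pre-proB and absent from every proB and preB library.

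Most of the turnover was among weak peaks. The median −log10 q, the peak caller's measure of how far a summit rises above background, was 10.2 for lost peaks against 63.1 for the pre-proB peaks that were retained, and 7.86 for gained peaks against 27.7 for retained proB peaks. Unshared peaks were narrow, with a median width of 341 bp for lost and 349 bp for gained peaks, against 633 and 536 bp for retained peaks. Promoters, taken as 1000 bp on either side of a start site, made up 3.59% of lost and 5.81% of gained peaks but 20.9% of retained pre-proB peaks. Introns held 54.6% of lost and 49.7% of gained peaks. The Rescue proB library was the shallower of the pair, with a background pileup, recovered from the fold values, of 3.49 fragments against 4.60 in Rescue pre-proB. For most levels set side by side below, the percentile in each library's own list is therefore given. Fold and −log10 q values given without a percentile also depend on depth.

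Ranked by score, the share of lost peaks fell from 69.2% in the weakest decile of the Rescue pre-proB list to 0.0379% in the strongest, 4 of 10565 peaks. In WT the corresponding share ran from 56.1% to 7.30%, or 698 of 9567 peaks in the strongest decile. Gained peaks ran the other way between genotypes. They made up 2.31% of the strongest decile in Rescue proB (211 of 9147) and 0.316% in WT proB (29 of 9167), while in the weakest decile they made up 47.7% in Rescue and 64.9% in WT. The Wilson intervals of the 2 genotypes did not overlap in the strongest decile in either direction, which speaks to counting error within these 4 libraries.

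**Figure D1:**
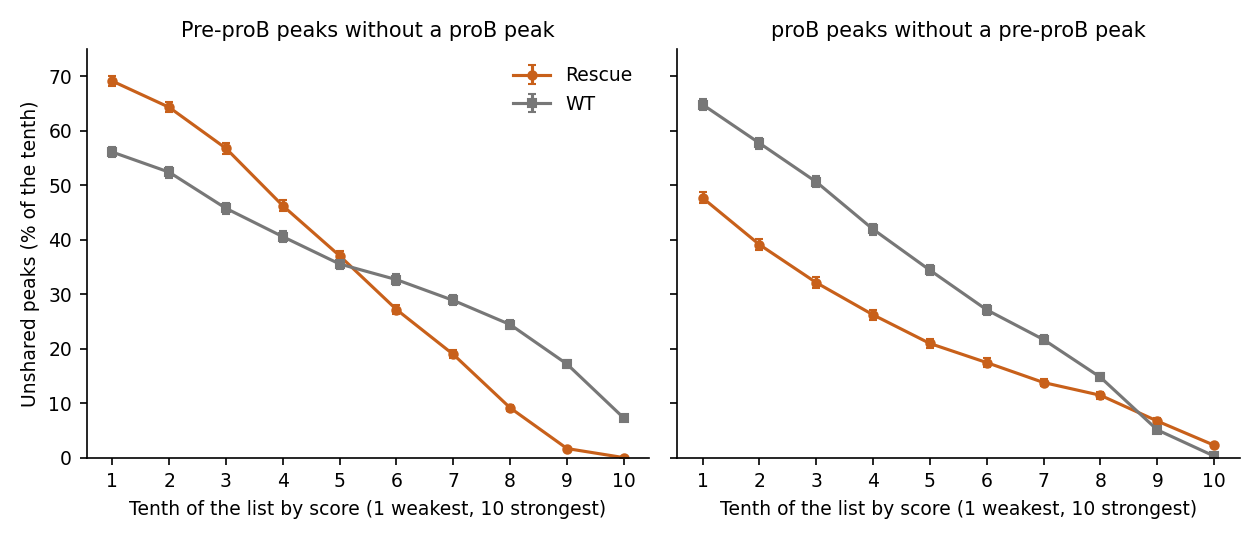
Share of unshared peaks (y axis, %) by decile of the peak list by score (x axis, 1 weakest to 10 strongest) in Rescue (orange circles) and WT (grey squares), lost on the left and gained on the right, with 95% Wilson bars. In the strongest decile, 0.0379% of Rescue pre-proB peaks were lost against 7.30% in WT, and 2.31% of Rescue proB peaks were gained against 0.316% in WT.

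The other libraries show which of these regions belong to the stage. Of the lost peaks, 77.9% had a peak in Erg KO pre-proB cells and 64.7% in WT pre-proB, against 12.8% in WT proB, 6.24% in WT preB and 8.73% in Rescue preB. Of the gained peaks, 73.0% were present in WT proB, 73.0% in Rescue preB and 64.5% in WT preB, against 13.5% in WT pre-proB cells and 8.67% in those of the Erg KO. The commonest pattern among gained peaks was presence in WT proB, WT preB and Rescue preB and in no other library, with 8269 peaks (41.5%), and among lost peaks presence in Erg KO and WT pre-proB alone, with 17053 (48.8%). A further 2601 gained peaks (13.0%) and 5175 lost peaks (14.8%) were found in no other library.

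Set beside the same step in WT, where 32633 peaks were lost and 29219 gained, 19498 of the Rescue lost peaks (55.8%) were also WT pre-proB peaks without a WT proB peak. In the other direction 19845 WT lost peaks (60.8%) were lost in Rescue, and 10790 (33.1%) had a peak in both Rescue libraries. Of the Rescue gained peaks, 12079 (60.6%) were gained in WT as well. Of the WT gained peaks, 11704 (40.1%) were gained in Rescue, and 13481 (46.1%) had no peak in either Rescue library.

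Strong gained peaks were a case of their own. Of the 980 gained peaks with a −log10 q of at least 100, all but 1 were present in WT proB and all but 1 in Rescue preB, and 596 (60.8%) were already present in WT pre-proB, whereas 42 (4.29%) were present in Erg KO pre-proB. Among the 11539 gained peaks with a −log10 q under 10 the shares were 7.94% for WT pre-proB and 10.2% for Erg KO pre-proB. Of the 816 lost peaks with a −log10 q of at least 100, all were present in both WT pre-proB and Erg KO pre-proB, 30 (3.68%) in WT proB and 21 (2.57%) in Rescue preB.

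**Figure D2:**
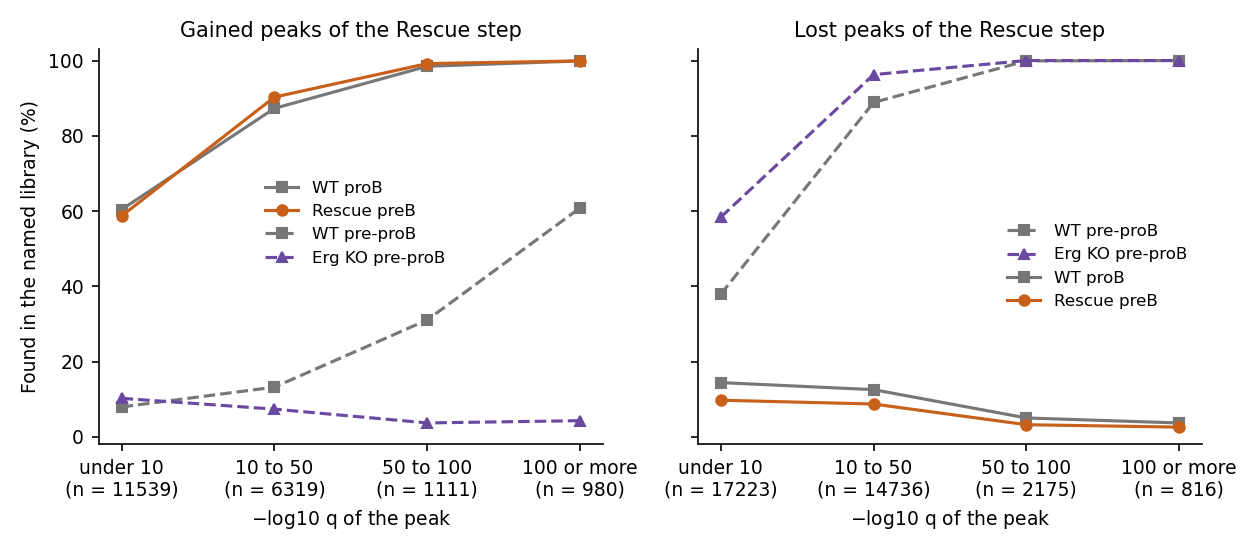
Share of gained (left) and lost (right) peaks of the Rescue step found in 4 other libraries (y axis, %) by the −log10 q of the peak (x axis, with the number of peaks in each class). Strong gained peaks were nearly all in WT proB and Rescue preB, and 60.8% of them were in WT pre-proB against 4.29% in Erg KO pre-proB.

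Many strong pre-proB regions kept a peak at proB and lost height. Rescue pre-proB peaks that WT has at pre-proB and not at proB numbered 30177, and 10679 of them (35.4%) still had a peak in Rescue proB. Those retained peaks sat at a median percentile of 67.2 in the Rescue pre-proB list and 26.3 in the Rescue proB list, and 92.3% of them had a lower percentile at proB. Among the 5174 with a −log10 q of at least 100, 4388 (84.8%) kept a peak, and their median fold over background went from 33.1 to 6.46. The 58989 Rescue pre-proB peaks present at both WT stages behaved differently, with 94.7% retained at a median fold ratio, proB over pre-proB, of 0.875 against 0.317 for the former set. In bulk chromatin, fewer cells with an open region and less opening per cell cannot be told apart.

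The same regions were then looked up in both proB libraries, with a choice made after seeing the values above. Regions of the Rescue pre-proB list that were present in all 3 pre-proB libraries and in neither preB library, with a −log10 q of at least 100, numbered 4434. A peak stood there in Rescue proB at 3648 of them (82.3%, 81.1 to 83.4) and in WT proB at 609 (13.7%, 12.8 to 14.8), at a median percentile of 37.6 and 28.2 in those lists against 81.2 in Rescue pre-proB. In the opposite direction, 1022 regions with a −log10 q of at least 100 in Rescue proB were present in all 4 proB and preB libraries and absent from Erg KO pre-proB. Rescue pre-proB held a peak at 89 of these (8.71%, 7.13 to 10.6) and WT pre-proB at 637 (62.3%, 59.3 to 65.3), the latter at a median percentile of 30.8. The choice of the 1022 regions asked for absence from Erg KO pre-proB, which shares the Erg deletion with Rescue pre-proB. In both directions strength was taken in a Rescue list only. The Rescue and WT shares were thus not taken on equal terms. Within these choices, WT pre-proB held weak peaks at many strong B-cell regions, and Rescue proB at many strong pre-proB regions.

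Sequence patterns, which the choice of peaks did not use, separated the 2 sets. The EBF1 letters stood in the 200 bp round the summit of 909 of 19949 gained peaks (4.56%, 4.28 to 4.86), 350 of 70699 retained pre-proB peaks (0.495%, 0.446 to 0.550) and 61 of 34950 lost peaks (0.175%, 0.136 to 0.224). That is 9.20 times the retained share and 26.1 times the lost share, with 1.05% over all 125598 regions. The same letters read backwards, AGGGNNCCCT, stood in 0.577% of gained, 0.569% of retained and 0.432% of lost peaks. The octamer followed the same order, with 5.32% of gained, 1.25% of retained and 0.621% of lost peaks and 1.72% over all regions. Both shares rose with the strength of the gained peak, EBF1 from 2.95% at a −log10 q under 10 to 11.8% at 100 or more, and the octamer from 4.06% to 8.88%. A rise with strength was not particular to these 2 patterns. Between the same classes the E-box share went from 15.84% to 37.35% in gained peaks and from 17.19% to 38.85% in lost peaks.

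RUNX, IRF, ETS-IRF composite, PU.1 and ETS letters were less frequent in gained than in retained peaks. RUNX letters stood in 13.5% of lost, 10.8% of retained and 8.18% of gained peaks (11.1% of all regions). The IRF letters GAAANNGAAA stood in 7.10%, 5.21% and 3.35% (5.44% of all), the composite GGAANNGAAA in 6.70%, 5.61% and 2.81% (5.47% of all) and PU.1 in 7.79%, 7.95% and 5.05% (7.45% of all), in the same order of sets. The 2 IRF patterns share letters and a site can match both. Letters read backwards fell in the same order for 3 of these, at 3.22%, 2.69% and 2.55% for RUNX, 4.13%, 3.23% and 2.35% for IRF and 2.18%, 1.72% and 1.53% for the composite. The PU.1 share of lost peaks was 0.979 times that of retained peaks, and 0.857 times away from promoters. For RUNX the lost share was 1.25 times the retained share, and 1.08 times away from promoters. For IRF these ratios were 1.36 and 1.22, and for the composite 1.195 and 1.045. The ETS letters CCGGAA, common at promoters, stood in 1.95% of lost, 7.10% of retained and 3.62% of gained peaks (5.11% of all). Away from promoters the lost share of ETS letters was 0.469 times and the gained share 0.878 times the retained share. The E-box differed little, at 20.6% of lost, 20.4% of retained and 19.6% of gained peaks (20.3% of all). The AP-1 letters TGANTCA stood in 6.41% of all regions. The GATA letters AGATAA stood in 7.76%. The TCF letters CTTTGAT stood in 2.41%. The FOX letters TGTTTAC stood in 2.45% of lost, 2.47% of retained and 2.69% of gained peaks. For these 4 the gained share was 0.941 to 1.10 times the lost share. It was 1.09 to 1.26 times the retained share, and 0.9925 to 1.146 times away from promoters. All letters were searched on both strands. Median GC content was 47.0% for lost, 48.5% for gained and 50.5% for retained windows.

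**Figure D3:**
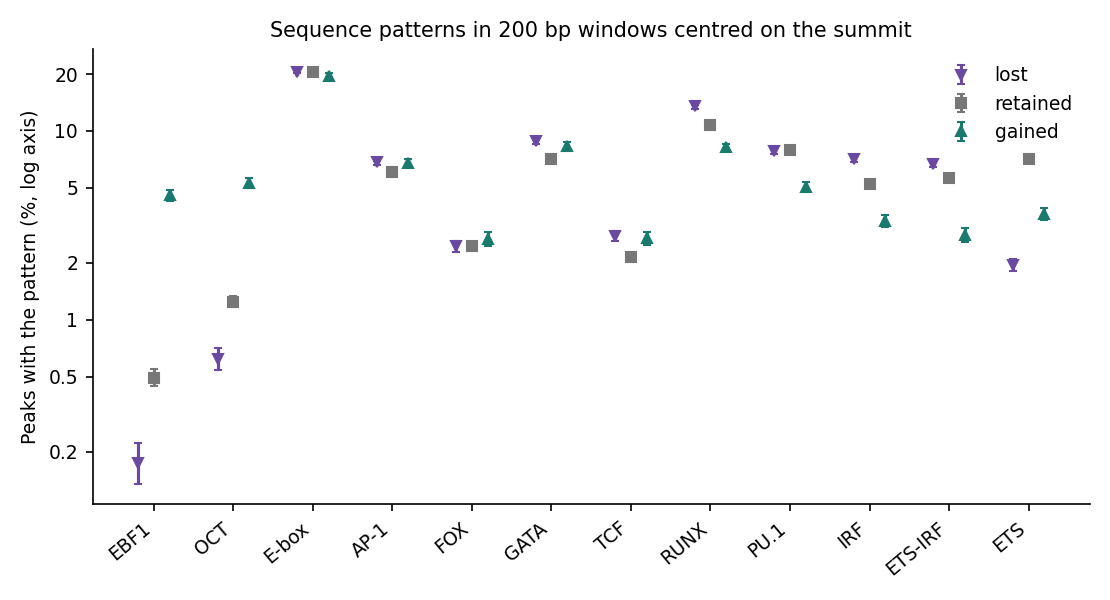
Share of lost (violet), retained (grey) and gained (green) peaks that hold each pattern in the 200 bp centred on the summit (y axis, %, log scale), with 95% Wilson bars. EBF1 and the octamer stood in 4.56% and 5.32% of gained peaks and in 0.175% and 0.621% of lost peaks, while RUNX stood in 13.5% of lost and 8.18% of gained peaks.

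The EBF1 letters were more frequent in gained peaks that WT proB shared. They stood in 181 of 2480 gained peaks present at both WT stages (7.30%, 6.34 to 8.39), in 652 of 12079 gained in WT too (5.40%, 5.01 to 5.82), in 75 of 5179 gained peaks absent from both WT stages (1.45%, 1.16 to 1.81) and in 1 of 211 present at WT pre-proB only (0.474%, 0.0837 to 2.63). The classes also differed in strength, with a median −log10 q of 26.6, 9.46, 4.93 and 4.93 in the same order. The EBF1 share rose with strength, and presence in WT was not separated from it.

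Among the factors of commitment, the Pax5 promoter opened and that of Ebf1 was open already. The Erg promoter, whose gene is the one deleted in the Rescue cells, ranked at percentile 53.8 in Rescue pre-proB and 85.4 in Rescue proB (−log10 q of 35.5 and 181.7), beside 57.6 in the Erg KO library and 61.1, 89.5 and 80.2 in WT pre-proB, proB and preB. A peak list does not show the deletion, so these values do not check the genotype. Nearest to Erg, 13 peaks were gained, 11 lost and 26 retained, the strongest gained one in an intron 30.8 kb into the gene at a −log10 q of 405.8.

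The Pax5 promoter held no peak in Rescue pre-proB or Erg KO pre-proB and a weak one in WT pre-proB (5.26). It then ranked at percentile 83.6 in Rescue proB, 87.1 in Rescue preB, 82.1 in WT proB and 84.8 in WT preB. Around Pax5, 17 peaks were gained and 5 lost, 15 of the 17 also present in WT proB and none in Erg KO pre-proB. Among peaks with a −log10 q of at least 10 the numbers were 6 and 6, and with lists of 45735 peaks each 5 and 4. Ebf1, the pioneer factor of the lineage, already had an open promoter in Rescue pre-proB, at percentile 76.7 against 90.6 in Rescue proB (136.1 and 293.3). It gained 26 peaks and lost 1 (18 and 4 at a −log10 q of at least 10), 17 of the 26 in introns, and the strongest, 333 kb downstream of a start site, reached 316.7 and was present in WT pre-proB as well as in all proB and preB libraries. A second, 42.3 kb upstream, reached 199.9.

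Over the 16 B-lineage transcription factors, 181 of 572 Rescue proB peaks were gained (31.6% against 21.8% of all) and 146 of 540 Rescue pre-proB peaks lost (27.0% against 33.1% of all), although with peaks of a −log10 q of at least 10 alone the balance turned, to 111 gained and 140 lost. More peaks were gained than lost at 10 of the 16 and more lost than gained at 4. Of all coding genes, 16.6% had more gained than lost peaks, 37.5% more lost than gained and 45.9% equal numbers. Pou2af1, the octamer coactivator, opened from no promoter peak to 532.2 with 9 gained peaks and none lost. Irf4, a regulator of light chain recombination, gained 17 and lost 3, the strongest a site 27.9 kb upstream at 240.5 that was absent from all 3 pre-proB libraries. Bcl11a and Foxp1 had the most changes, Bcl11a with 38 lost and 12 gained (6 and 7 with lists of 45735 peaks each) and Foxp1 with 32 lost and 25 gained. The promoter of Ikzf1, the gene of Ikaros, stood lower at proB, at 764.9 in Rescue pre-proB (percentile 95.8) and 261.4 in Rescue proB (89.4).

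The genes of the pre-B-cell receptor and its signalling had more gains than losses. Of 179 Rescue proB peaks near these 18 genes 55 were gained (30.7% against 21.8% of all), and of 150 Rescue pre-proB peaks 24 were lost (16.0% against 33.1% of all). Gains exceeded losses at 12 genes (16.6% of all coding genes) and losses exceeded gains at 2 (37.5% of all coding genes). Gains exceeded losses for this list under every alternative tried except staging by source name, but by 36 to 32 only at a −log10 q of at least 10. Vpreb1 and Vpreb2, of the surrogate light chain, had no promoter peak in Rescue pre-proB and stood at 121.9 and 27.7 in Rescue proB (percentiles 80.73 and 57.04). In WT pre-proB Vpreb1 and Vpreb2 were already open, at 26.9 and 7.34 (percentiles 48.62 and 16.05). Cd79a, the signalling chain, had a promoter peak of 5.30 in Rescue pre-proB (percentile 9.86) and 383.2 in Rescue proB (93.0), against percentile 58.5 in WT pre-proB and no peak in Erg KO pre-proB. Igll1, which encodes lambda5, ranked at percentile 98.4 in Rescue proB and had an open promoter before, and Ms4a1, the CD20 gene, went from percentile 15.3 to 80.1. The promoters of the kinase genes Lyn and Blk ranked at percentiles 81.2 and 70.8 in Rescue pre-proB and 96.8 and 82.6 in Rescue proB. Cd24a gained 8 peaks and lost 1, and Syk lost 8 and gained 4.

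Of the recombination and end joining genes, 9 of 10 had an open promoter at both stages and none opened or closed. Over the list 7 peaks were gained and 9 lost, which turned to 9 gained and 5 lost with lists of equal length. The Rag2 promoter ranked at percentile 54.4 and then 78.4, and that of Rag1 at 84.5 and 89.8. Dntt, which encodes the polymerase that adds N nucleotides at junctions, went down, from 34.4 (percentile 53.2) to 7.10 (23.4), and ranked at 78.0 in WT pre-proB and 6.02 in WT proB. The 11 genes of the interleukin 7 receptor pathway gained 31 peaks and lost 23, reversed to 22 and 28 with a −log10 q of at least 10, and none of their promoters opened or closed. Il7r itself gained 8 and lost 1 while its promoter ranked at percentile 89.5 and then 85.7. Socs2, a feedback inhibitor, gained 7 and lost none.

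**Figure D4:**
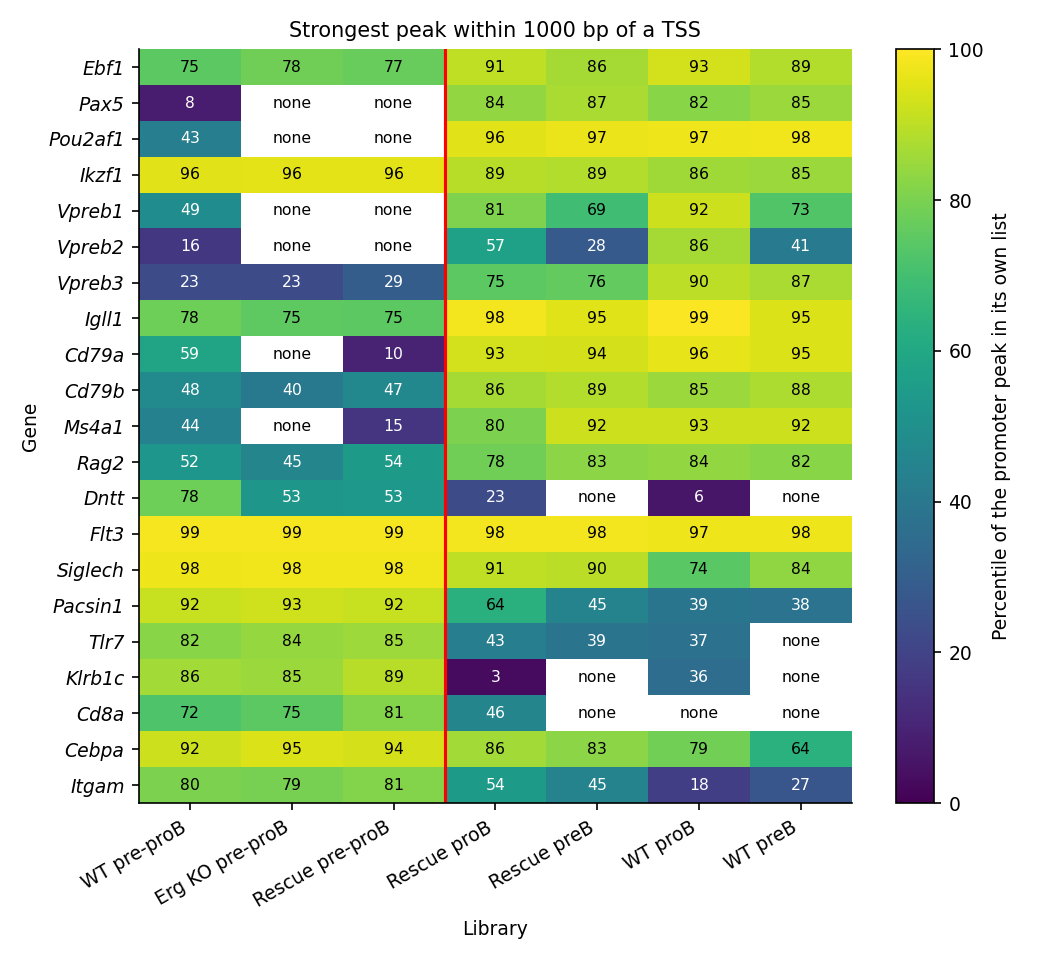
Percentile, within its own peak list, of the strongest peak within 1000 bp of a start site for 21 listed genes (rows) in the 7 libraries (columns), with "none" for no peak. The red line parts the 3 pre-proB libraries from the 4 proB and preB libraries, and Rescue proB stood between Rescue pre-proB and WT proB at Siglech, Pacsin1, Tlr7, Cebpa and Itgam.

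Lost peaks outnumbered gained ones over all peaks (33.1% lost, 21.8% gained), and the lists of other lineages are read against that. With lists of equal length the shares over all peaks were 27.6% lost and 26.1% gained. Lost peaks outnumbered gained ones on each list of another lineage too. This turned around for plasmacytoid dendritic and myeloid genes with lists of equal length and for all of these lists by source name. Of their promoters 7 closed, against 2.04% over all coding genes. These were 3 of 12 T-cell, 1 of 12 NK, 1 of 12 plasmacytoid dendritic and 2 of 12 myeloid promoters. Those of Tbx21, Ccr2 and Hbb-bt opened, against 2.36% over all coding genes. Stem and progenitor genes lost 71 of 160 pre-proB peaks (44.4%) and gained 20 of 119 (16.8%), with losses in excess at 8 of 12 genes and gains at 2. Over all coding genes losses were in excess at 37.5% and gains at 16.6%. None of the stem and progenitor promoters opened or closed. Mecom lost 19 peaks and gained 1, Kit lost 10 of 13 and gained none, and Cd34 lost 10 and gained none. Flt3, the receptor of early lymphoid progenitors, lost 7 and gained 3, and its promoter ranked at percentile 98.6 and then 98.1. Promoters of Mecom (percentile 82.65 and then 92.52), Kit (77.64 and 80.73) and Lmo2 (84.29 and 91.22) ranked higher. Those of Hoxa9 (65.65 and 74.19), Hlf (87.73 and 90.67) and Meis1 (93.44 and 93.66) did too. Promoters of Cd34 (75.46 and 66.23), Tal1 (69.35 and 59.96) and Gata2 (33.85 and 31.37) ranked lower.

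T-cell genes lost 46 of 106 peaks (43.4%) and gained 12 of 73 (16.4%). The promoters of Notch3, Bcl11b and Cd4 closed, all from weak peaks of 5.30, 4.06 and 4.06. Cd8a lost 11 of 13 peaks, and its promoter went from 192.1 (percentile 81.5) to 16.5 (45.5), with no peak there in Rescue preB, WT proB or WT preB. The promoters of the T-cell receptor signalling genes Cd3d, Cd3e and Zap70 held no peak in any of the 7 libraries. The Gata3 promoter ranked higher, at percentile 92.0 and then 97.4, while losing 10 peaks and gaining 3. Promoters of Tcf7 (26.0 and then 63.6), Notch1 (80.8 and 86.0) and Lck (65.3 and 71.9) ranked higher as well. That of Cd3g fell from percentile 66.6 to 9.05.

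NK and innate lymphoid genes lost 78 of 196 peaks (39.8%) and gained 29 of 146 (19.9%). Id2, the inhibitor of E proteins, carried 29 of those losses against 6 gains, with 27 of the 29 lost regions present in Erg KO pre-proB and 4 in WT proB, yet its promoter ranked at percentile 97.8 and then 98.8. Klrb1c, the NK1.1 gene, went from percentile 89.3 to 2.74 at its promoter (375.3 and 2.996), and Il2rb closed from 21.4. Promoters of Eomes (percentile 33.85 and then 64.15), Tox (74.04 and 89.15), Nfil3 (81.15 and 87.02) and Rora (87.41 and 88.44) ranked higher. Those of Klrd1 (96.18 and 84.99), Il18r1 (54.4 and 52.6) and Zbtb16 (25.97 and 23.41) ranked lower. The Tbx21 promoter opened at 9.46, and Ncr1 held no promoter peak in any library.

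Plasmacytoid dendritic genes lost 136 of 308 peaks (44.2%) and gained 68 of 240 (28.3%), both above the shares of all peaks, with more gained than lost once the lists were cut to equal length (82 and 80). Siglech, the marker of these cells, ranked at percentile 97.9 and then 90.6 (−log10 q of 1081 and 293.3), beside 74.4 (94.3) in WT proB. Pacsin1 went from percentile 91.6 to 63.6 and Tlr7, the receptor for single-stranded RNA, from 85.4 to 42.6, and Cox6a2 closed from a −log10 q of 16.9. Promoters of Tcf4, Zeb2, Runx2 and Tlr9 on this list ranked higher in Rescue proB. Tcf4, the regulator of these cells, stood at percentile 92.3 and then 93.7, Zeb2 at 80.9 and 86.3 and Runx2 at 78.1 and 78.7. The Tlr9 promoter peak had a −log10 q of 688.9 in Rescue pre-proB (percentile 95.02) and 745.3 in Rescue proB (97.63). Zeb2 gained 27 peaks and lost 26, and Tcf4 gained 25 and lost 28. Runx2 lost 55 peaks and gained 7 (26 and 10 at equal length, 7 and 4 with lists of 45735 peaks each), 53 of the 55 in introns, with 50 present in Erg KO pre-proB, 42 in WT pre-proB and none in WT proB, WT preB or Rescue preB.

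Myeloid genes lost 35 of 85 peaks (41.2%) and gained 27 of 77 (35.1%), each share above that of all peaks (33.1% and 21.8%), turning to 28 gained and 26 lost at equal length. Cebpa, the myeloid regulator, ranked at percentile 93.5 and then 86.3, beside 78.8 in WT proB, and Itgam at 81.3 and then 54.5, beside 18.5. Csf3r and Mpo closed from 4.67 each, and the promoters of Elane and S100a8 held no peak in any library. The erythroid list lost 21 of 41 peaks and gained 8 of 28. The promoters of Gata1, Hba-a1, Alas2, Slc4a1 and Ermap held no peak in any library, and Hbb-bt opened at 4.26. For stem, T-cell, NK and erythroid genes losses outnumbered gains under every alternative tried except staging by source name, for T-cell genes by 13 to 12 only with lists of 45735 peaks each.

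Of the peaks of 8 genes that Pax5 is known to repress, 5 of them also on the lists above, 39 of 101 were lost (38.6%) and 26 of 91 gained (28.6%), both above the shares of all peaks, and with lists of 45735 peaks each gains outnumbered losses (20 and 12). The Cd28 promoter ranked at percentile 90.6 and then 85.4 and that of Grap2 at 89.7 and 84.3. Ccr2 opened, from no peak to a −log10 q of 92.6, and was open in WT proB, and Csf1r ranked higher, at percentile 51.3 and then 78.7. The housekeeping genes Actb and Gapdh together lost 2 peaks, gained 2 and retained 10.

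At the promoters of all 21938 coding genes, 518 opened (2.36%) and 447 closed (2.04%). Of those opened, 428 were open in WT proB, 358 had opened in the WT step too, 331 were open in Rescue preB and 76 in WT pre-proB. Of those closed, 357 were open in Erg KO pre-proB, 208 had closed in the WT step, 117 were open in WT proB and 54 in Rescue preB. The strongest to open, besides Pou2af1, were Bsnd (498.6), C4bp (370.1), Hdac9 (370.1), Klhl14 (362.6), Slc17a4 (334.9), Sorbs2 (277.2) and Hist1h1d (240.5). All 8 were open in WT proB, and 7 of them, all but Hist1h1d, were open in Rescue preB. Pou2af1, Bsnd, Klhl14, Slc17a4 and Sorbs2 held promoter peaks in WT pre-proB, the highest that of Bsnd at 68.8.

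The 8 strongest to close were Aplnr, Klrb1a, Saa2, Fcamr, Saa1, Siglecf, Gsg1 and Ldlrad1, and none was a clean closure. In all 8 the strongest peak of the window was retained as a peak and reached the window in pre-proB only, its summit 1261 to 2517 bp from the start site. The same held for Hist1h1d among the opened. Over all promoters, 25 of the 447 closed (5.59%) and 13 of the 518 opened (2.51%) had no unshared peak in the window. Chosen after these values were seen, the strongest closed promoters whose leading peak was itself lost, predicted genes aside, were Ifna11 (228.7), Olfr458 (211.0), Serpina3c (209.4), Klk1b5 (206.3), Adgrg5 (195.2), Rab7b (165.9), Kif1a (161.3) and Olfr457 (142.0). All 8 closed in WT as well.

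Counted by nearest start site, 8231 coding genes had more lost than gained peaks and 3641 more gained than lost. In WT these numbered 6374 and 5865. The Rescue pre-proB list was the longer of the pair. With lists of 91471 peaks each, 25242 peaks were lost (27.6%) and 23843 gained (26.1%). The largest excess of gains lay in wide gene-poor tracts, where the nearest gene is a landmark more than a target. Rpia (66 gained, 12 lost) flanks the kappa light chain locus, and its gained peaks lay a median of 1088 kb away. Adam6a (49 and 10) sits inside the heavy chain locus. Next came Mef2c, a factor of B-cell and myeloid fate, with 42 gained and 10 lost, the strongest 419 kb upstream of a start site at 532.2, and 34 of the 42 present in Rescue preB. Brinp3 had 31 and 3, Nrp1 31 and 10, Prim2 27 and 2, Lrrn3 26 and 6, Zfp988 25 and 2 (45 and 2 with lists of equal length), and Pcdh9 22 and 3. Klhl14 gained 25 and lost none, 13 of them within 50 kb, the strongest at 825.9. Among stronger peaks these excesses were smaller. At a −log10 q of at least 10, Mef2c had 18 gained and 9 lost, Klhl14 15 and 0, Brinp3 5 and 0 and Zfp988 2 and 2.

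On the side of loss, after Runx2, Slco3a1 lost 37 peaks and gained none. Rapgef5 lost 39 and gained 11, Tbl1xr1 35 and 9, Zfhx3 32 and 10, and Mki67, a proliferation gene whose promoter ranked at percentile 96.4 and then 98.1, 28 and 3. Svil lost 28 and gained 6, Zfp521, a progenitor zinc finger factor that opposes Ebf1, 25 and 2, Cntnap2 24 and 1, and Rin2 23 and none. Of the 25 peaks lost at Zfp521, 23 had a peak in Erg KO pre-proB, whereas 2 had one in WT proB. The order depends on the assignment. Within 50 kb of a start site, 2 of the 12 genes of gain (Klhl14 and Zfp988) and 1 of the 12 of loss (Runx2) stayed in the leading 12, and with start sites of any gene 2 of gain and 0 of loss.

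**Figure D5:**
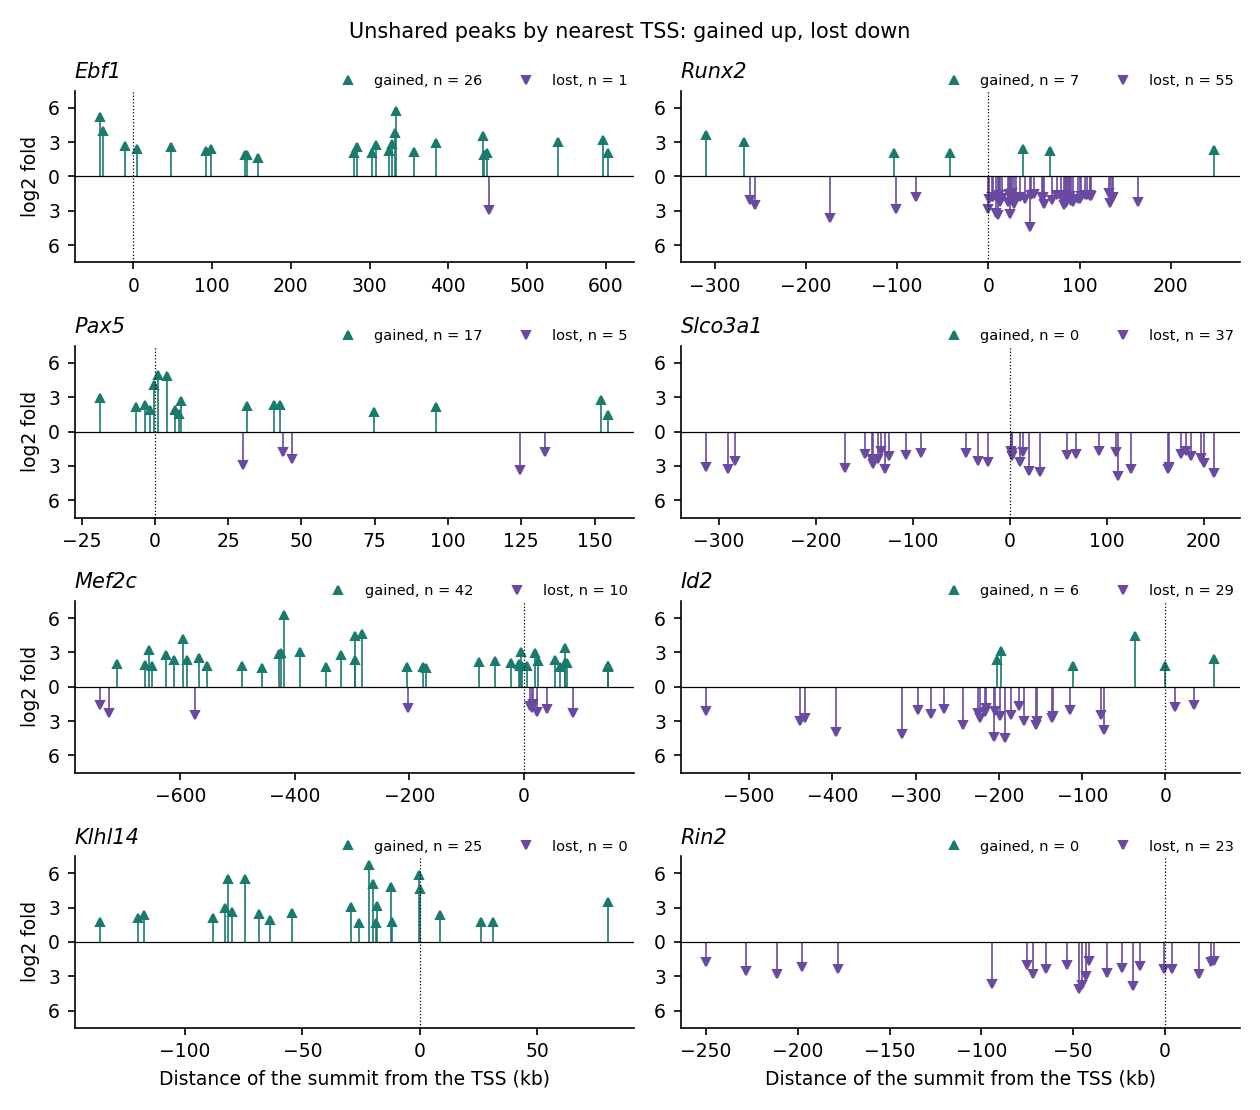
Gained (green, up) and lost (violet, down) peaks by distance from the nearest start site (x axis, kb, negative upstream) and log2 fold over background (y axis) for 4 genes with more gains on the left and 4 with more losses on the right. Ebf1, Pax5, Mef2c and Klhl14 gained 26, 17, 42 and 25 peaks, and Runx2, Slco3a1, Id2 and Rin2 lost 55, 37, 29 and 23.

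The 8 strongest autosomal gained peaks lay nearest to Celf2 and Fam53b (both 1095, in introns), Lrrc18 (923.1), Lrrn3 (916.5), Ufm1 (912.2), Pnpla8 (888.3), Slc52a3 (881.8) and Mbip (877.5). All 8 were present in WT pre-proB, WT proB, WT preB and Rescue preB, and of the 8 only the Fam53b region was present in Erg KO pre-proB. The 8 strongest lost peaks lay nearest to Itpripl2 (486.5), Gcnt2 (482.8), Pfkp (422.1), Gfra3 (405.7), Aqr (400.3), Arrdc4 (347.0), Gpc1 (343.5) and Pign (310.5). All 8 were present in WT pre-proB and Erg KO pre-proB and in no proB or preB library.

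At the antigen receptor loci gains concentrated in Igk. Of 224 Rescue proB peaks in the kappa light chain locus 162 were gained (72.3%, against 21.8% of all), 132 of them present in WT proB and 155 in Rescue preB, and of 80 Rescue pre-proB peaks 20 were lost. Peaks in Igk numbered 67, 213 and 228 in WT pre-proB, proB and preB, 255 in Rescue preB and 74 in the Erg KO library. In the heavy chain locus, Igh, 88 of 220 Rescue proB peaks were gained and 36 of 169 lost (21.3%), with 80 gained and 36 lost in WT. Igl, the small lambda locus, gained 2 and lost 6. Of the T-cell receptor loci, Tcra lost 43 of 90 peaks (47.8% against 33.1% of all) and gained 9, Tcrb lost 24 of 55 (43.6%) and gained 4, and Tcrg lost 4 of 14 (28.6%, below the share of all) and gained 1. V segments are near copies of each other, and how reads that align to several were treated is not given in the sources used here, so single peaks inside these loci are uncertain.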

How the data were processed

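ATAC-seq was made of 7 sorted populations, 1 library per genotype and stage. According to the study's methods and the submitters' processing notes, paired-end reads were aligned to mm10 with Bowtie2 and peaks were called per library with MACS2, and CASAVA 1.8.2 and Picard are also named. For caller options and duplicates: not given in the sources used here. Tn5 tagmentation is named in the labels and sonication in the methods. The deposited lists give, for each peak, the score, the fold ratio of the summit pileup over background, and the −log10 p-value and q-value, all as the authors' peak caller wrote them. Values are relative to each library, and read totals were not analysed here. The background pileup (3.49 to 4.60 fragments over the 7 libraries) was recovered from the steps of the fold values, which were whole within 0.02 of a step.

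From these, peaks were intersected at 1 bp and assigned to the nearest protein-coding start site of GENCODE M21. A promoter was open when a peak overlapped 1000 bp on either side of any start site. Letters were searched in 200 bp of GRCm38 centred on the summit. Chromosome lengths were checked against the lists. Overlap, assignment, pileup and pattern steps were tested on simulated data (Python 3.11.15, pandas 2.3.3, NumPy 2.4.6, SciPy 1.17.1). Named were Erg, Ebf1 and Pax5; from 12 gene lists, members whose promoter opened or closed and the 4 with most unshared peaks, with others for context; the 12 genes of largest excess each way; and the 8 strongest peaks and promoters each way. Antigen receptor segments and predicted genes were left out of the excess, peak and promoter rankings. Members and lists were chosen with earlier results of these data known, and the sequences shown, the rank comparison in both proB libraries and the promoters whose leading peak was lost were chosen after the values were seen. Alternatives were other overlaps, thresholds, list lengths, windows, gene assignments, a depth scaling and stages by source name. Results for some genes are not reported here.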

Additional observations from a re-analysis of the deposited data

Results flagged for a closer look

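The step ran in opposite directions in Rescue and WT at 48 promoters and on 2 gene lists. With 1 library per group the difference was not tested, so each is given as a value. Of 21938 coding genes, 6 had promoters that opened in Rescue and closed in WT (Efhc2, Gm36028, Hes7, K230010J24Rik, Ltbp3 and Tnfaip6). A further 42 closed in Rescue and opened in WT, Bcl11b, Cd4 and Axl among them. Some rested on weak peaks. Cd4 had a −log10 q of 4.06 in Rescue pre-proB (percentile 4.71) and 3.65 in WT proB (3.46). Bcl11b had 4.06 in Rescue pre-proB (percentile 4.71) and 21.9 in WT proB (48.2). In Rescue pre-proB Axl had 8.74, and Abcg8, also of the 42, had 68.1. Peaks near the calling threshold were not separated from the others. For the recombination and end joining genes gained minus lost peaks came to -2 in Rescue (7 gained, 9 lost) against 12 gained and 7 lost in WT. For the interleukin 7 receptor pathway the difference was 8 in Rescue (31 gained, 23 lost) against 26 gained and 29 lost in WT.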

How the results depend on the processing

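No paired analysis was possible because each group has 1 library and the labels give no replicate numbers, and for the same reason no replicate could be left out. Gained peaks numbered 32929 with an overlap of at least 50% of both peaks, 11798 with a −log10 q of at least 10 in every list (7907 also gained in WT) and 12684 with lists of 45735 peaks each, where lost peaks numbered 13086 (10128 also lost in WT). Staged by source name, 43333 were gained and 21912 lost. The EBF1 share of gained and lost peaks was 5.72% and 0.521% in windows of 400 bp, 6.77% and 0.113% at a −log10 q of at least 10, and 0.157% and 4.18% by source name. The RUNX share was 13.2% and 18.9%, 9.21% and 14.9%, and 15.0% and 7.01%, in the same order. Of the 12 genes leading each way, 2 of gain (Klhl14 and Nrp1) and 0 of loss led when start sites of any gene were used, and 2 of gain and 1 of loss within 50 kb.

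Gained minus lost peaks turned sign as follows. At a −log10 q of at least 10 the B-lineage factors came to -29 and the interleukin 7 pathway to -6. With lists of 91471 peaks each the recombination genes came to 4, the plasmacytoid dendritic to 2 and the myeloid to 2. With 45735 each these came to 3, 19 and 4, the genes repressed by Pax5 to 8 and Bcl11a to 1. By source name the B-lineage factors came to -7, the pre-B-cell receptor list to -30, stem genes to 67, T-cell to 43, NK to 75, plasmacytoid dendritic to 95, myeloid to 13, erythroid to 13 and genes repressed by Pax5 to 14, and all 26 of the genes named by excess or as Pax5 and Erg swapped sign. The cause was not tested. Scaling the summit pileup for depth left 34864 lost and 19949 gained. The lowest Rescue proB summit, 10 fragments, scales to above the Rescue pre-proB floor of 12, so no gained peak could drop out. Only lost peaks near that floor could, so the scaling is no check on depth. The excess of gained peaks came to 0 at Pax5 and at Zfp988 at a −log10 q of at least 10.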
